A study of Mus musculus with 12 samples.

Results

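The respiratory chain genes were taken from the count table of 12 cultured cardiac progenitor cells (CPCs) by row name. Rows beginning with mt- were the mitochondrial members. Rows of the Nduf, Sdh, Uqcr, Cox and Atp5 families were the nuclear members. The rule found 95 genes among the 21729 rows, of which 82 are encoded in the nucleus and 13 in mitochondrial DNA. By the complex they belong to, the nuclear members comprised 35 genes of complex I, 4 of complex II, 8 of complex III, 16 of complex IV and 15 of complex V. Another 4 carry a family name without being a chain subunit in the usual sense (Atp5s, Atp5sl, Cox7a2l and Ndufa4l2). The mitochondrial members comprised 7 genes of complex I, 1 of complex III, 3 of complex IV and 2 of complex V.

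CPCs were c-Kit+ Lin- cells sorted magnetically from the non-myocyte fraction of pooled hearts of 12-week-old FVB mice labelled female. They were expanded as an adherent culture in medium with LIF and the growth factor bFGF at 10 ng/ml each and the growth factor EGF at 20 ng/ml. They were passaged 5 times, and no freshly isolated cell was analysed here. The 12 cells (CPC1 to CPC12) formed 1 group, were picked by hand, and gave a full-length cDNA library each, without molecular identifiers. The labels name no culture or animal for a cell, so the group counted as 1 sample and no test was made. Means ± SD, ranges and correlations describe these 12 cells. Total counts per cell ran from 3453708 (CPC1) to 5690184 (CPC12), and levels are given as CPM, the count divided by the cell's total and multiplied by 1000000. Kit had a count in 1 of 12 cells, and the Y-linked genes Ddx3y and Eif2s3y had counts in 12 of 12 although the mice are labelled female. CPC10 stood apart with endothelial markers, which summed to 9763 CPM there and to at most 58.5 CPM in any other cell. Of these 9 markers, Cldn5 and Vwf had no count in any cell. CPC3 stood apart by its sum of haematopoietic markers, which was 1622 CPM there and at most 75.6 CPM in any other cell. Of that sum, 1463 CPM came from Cd53. Cd68, Csf1r and Lyz2 were also highest in CPC3 (69.1, 59.1 and 30.3 CPM). Ptprc was highest in CPC7 (9.70 CPM), and Laptm5 had no count in any cell.

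The respiratory chain moves electrons from NADH (complex I) and succinate (complex II) through complex III to oxygen at complex IV, and complex V (ATP synthase) uses the resulting proton gradient to make ATP. Complex II is encoded entirely in the nucleus, whereas the other complexes combine nuclear subunits, made in the cytosol and imported, with a few subunits made inside mitochondria from mitochondrial DNA. The mitochondrial genes are copied as long transcripts that are cut into separate messenger RNAs. Adult heart muscle is rich in mitochondria and carries heart and muscle isoforms of some subunits, while most other cells use the broad isoforms.

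Uniquely mapped reads were counted, so sequence shared with other loci bears on the mitochondrial rows. A run of 7 annotated pseudogenes on the minus strand of chromosome 1 (mm10, chr1:24611535-24616197, 4663 bases from end to end) copies the mitochondrial genes from mt-Co1 to mt-Nd4. None of these 7 pseudogenes was a row of the count table. The aligned bases of mt-Co2 (681 of 684), mt-Co3 (783 of 784), mt-Atp6 (678 of 681) and mt-Nd4l (294 of 297) were identical to their copies. The first 75 bases of mt-Co2 (chrM:7013-7087, plus strand), shown because the row was nearly empty, stand unchanged in the pseudogene Gm28661.
mt-Co2: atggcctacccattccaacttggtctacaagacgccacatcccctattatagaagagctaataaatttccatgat
The first 61 bases of mt-Nd3 (chrM:9459-9519, plus strand) and of its copy Gm28438 (chr1:24613059-24613119, minus strand) hold the 1 base, in capitals, at which the 345 aligned bases differ (T3C, counted from 1 at the start of mt-Nd3, with the mitochondrial base first).
mt-Nd3: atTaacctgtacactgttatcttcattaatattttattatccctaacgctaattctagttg
Gm28438: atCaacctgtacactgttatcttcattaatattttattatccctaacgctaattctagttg
By contrast, mt-Co1 and mt-Nd4 were copied in part. The stretch of mt-Co1 at chrM:6350-6439 shows where its alignment with the copy Gm29216 begins. The bases of Gm29216 shown are its bases 10 to 59 (chr1:24616139-24616188, minus strand). The stretch of mt-Nd4 at chrM:11003-11082 shows where its copy Gm28439 ends. Capitals in both mark mitochondrial bases outside the stretch that aligned with the copy, together with the 1 aligned base at which mt-Co1 and Gm29216 differ (A1066T, counted from 1 at the start of mt-Co1, with the mitochondrial base first).
mt-Co1: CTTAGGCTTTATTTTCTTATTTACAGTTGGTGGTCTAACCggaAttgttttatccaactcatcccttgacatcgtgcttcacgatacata
Gm29216: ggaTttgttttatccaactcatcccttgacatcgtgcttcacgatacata
mt-Nd4: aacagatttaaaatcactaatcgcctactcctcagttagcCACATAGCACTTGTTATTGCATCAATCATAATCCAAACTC

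The mitochondrial rows fell into strongly counted and nearly empty genes along the mitochondrial genome. Per kb of exon, mt-Co1 (chrM:5328-6872), the catalytic core of complex IV, had a median of 4402 CPM per kb over the 12 cells, with 2272 as the lowest and 7121 as the highest value. The cytochrome b gene mt-Cytb (chrM:14145-15288), the mitochondrial subunit of complex III, had a median of 3995 CPM per kb, with 2922 as the lowest and 6943 as the highest. Between these 2 genes the ranges per kb overlapped widely, but per 1000 windows of 75 bases found in no other annotated gene the medians were 7685 CPM for mt-Co1 and 4271 CPM for mt-Cytb. The cell CPC3 was the highest cell for mt-Co1 while CPC5 was the highest for mt-Cytb.

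The complex I genes of the mitochondrial DNA were lower per kb. The median of mt-Nd1 was 1618 CPM per kb (1000 to 4071), that of mt-Nd4 was 769 (451 to 1772), that of mt-Nd5 was 637 (370 to 1029), that of mt-Nd2 was 590 (363 to 1742) and that of mt-Nd6 was 348 (151 to 949). Per 1000 unshared windows the order of the first pair was turned, with 2111 CPM for mt-Nd4 and 1753 CPM for mt-Nd1. These genes encode membrane subunits of the proton-pumping arm, and per kb all 5 ranges lay below the lowest mt-Co1 value except that of mt-Nd1. The mt-Nd6 gene lies on the opposite strand from mt-Nd5 and the ends of both genes overlap, so their reads cannot be told apart there unless strand was counted, which is not stated in the sources used here.

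The 5 rows whose sequence was copied almost whole were nearly empty. Of the possible 75-base windows, 99.9% in mt-Co3, 99.5% in mt-Co2, 99.5% in mt-Atp6, 98.7% in mt-Nd4l and 97.8% in mt-Nd3 occurred in another annotated transcript. Their median levels were 13.7 CPM for mt-Co3, 6.20 for mt-Co2, 2.45 for mt-Atp6 and 0 for both mt-Nd4l and mt-Nd3. In mt-Nd4 the share of copied windows was 61.5%, in mt-Co1 39.8%, in mt-Nd2 5.71%, in mt-Nd5 1.66% and in mt-Nd1, mt-Nd6 and mt-Cytb 0%. The medians of these 7 genes ran from 181 CPM (mt-Nd6) to 6801 CPM (mt-Co1). The row mt-Atp8 fell outside this order, since 0% of its windows were shared and it had at most 1 count in a cell. In the copied run, the place of mt-Atp8 up to the start of mt-Atp6, with which its end overlaps, falls in a stretch of 233 bases on chromosome 1 between the annotated copies (chr1:24614652-24614884), and the sequence of that stretch was not analysed here. How far the copies set these low counts was not tested, because reads with several matches were not analysed here and a mate of a pair can reach a unique stretch. Complex V is therefore represented here by nuclear genes, and mitochondrial complex IV by mt-Co1.

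**Figure D1:**
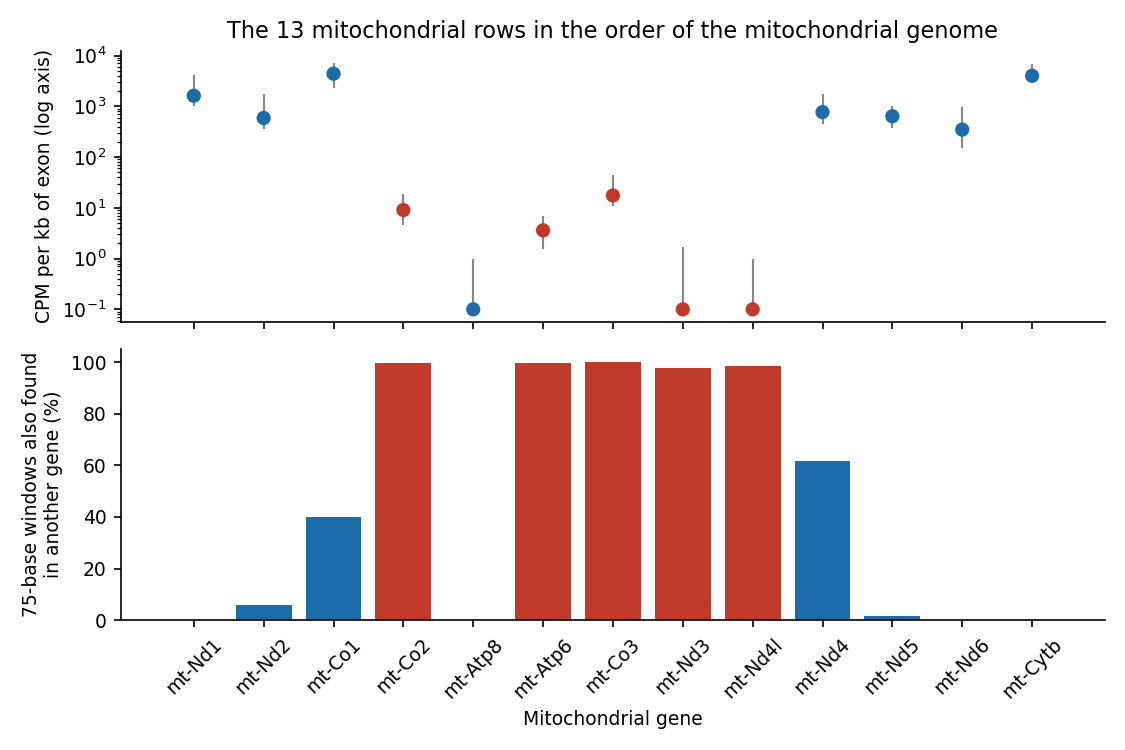
The upper panel plots each of the 13 mitochondrial rows in genome order as its median CPM per kb of exon over 12 cells (point, log axis) with the lowest and highest cell (line), and values under 0.1 are drawn at 0.1. The lower panel gives the percentage of 75-base windows also found in another annotated gene, and the rows above 90% (red) have medians between 0 and 17.5 CPM per kb.

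As a share of all counts, the nuclear members were steadier than the mitochondrial genes. The nuclear share was 2.15% ± 0.217 (SD, 12 cells), from 1.88% in CPC12 to 2.55% in CPC4. The mitochondrial share had a mean of 1.69% and ran from 1.02% (CPC9) to 2.77% (CPC5), and mt-Co1 and mt-Cytb supplied 38.6% and 30.0% of it on average. The balance of these 2 genes shifted between cells, with a ratio of mt-Co1 to mt-Cytb counts of 0.754 in CPC12, 1.19 at the median and 2.27 in CPC3. The highest cell exceeded the lowest 1.35-fold for the nuclear sum and 2.72-fold for the mitochondrial sum. With at least 48655 counts behind each sum, the exact 95% binomial intervals reached at most 0.0159 percentage points to either side, which covers counting error and not the error of amplification.

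The ratio of nuclear to mitochondrial counts is computed without the total. Its median was 1.42, the lowest values were 0.836 (CPC5) and 0.837 (CPC3), and the highest was 1.98 (CPC9). In 10 of 12 cells the nuclear members held more counts than the mitochondrial genes. The mitochondrial side holds almost no counts of the 5 genes that are copied nearly whole, so it may be undercounted and the direction applies to the deposited counts only. Over the 12 cells the log2 sums of both had a Pearson r of 0.48 and a Spearman rho of 0.46. Without CPC4 and CPC5, the cells farthest from the median of the mitochondrial sum, r was 0.19, and without CPC3 and CPC10 it was 0.74. The points share a group and a denominator. The nuclear sum had an r of 0.69 with the number of genes detected and of -0.54 with the total, and the mitochondrial sum of 0.57 and -0.53, and the part of depth and detection in the relation was not tested.

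**Figure D2:**
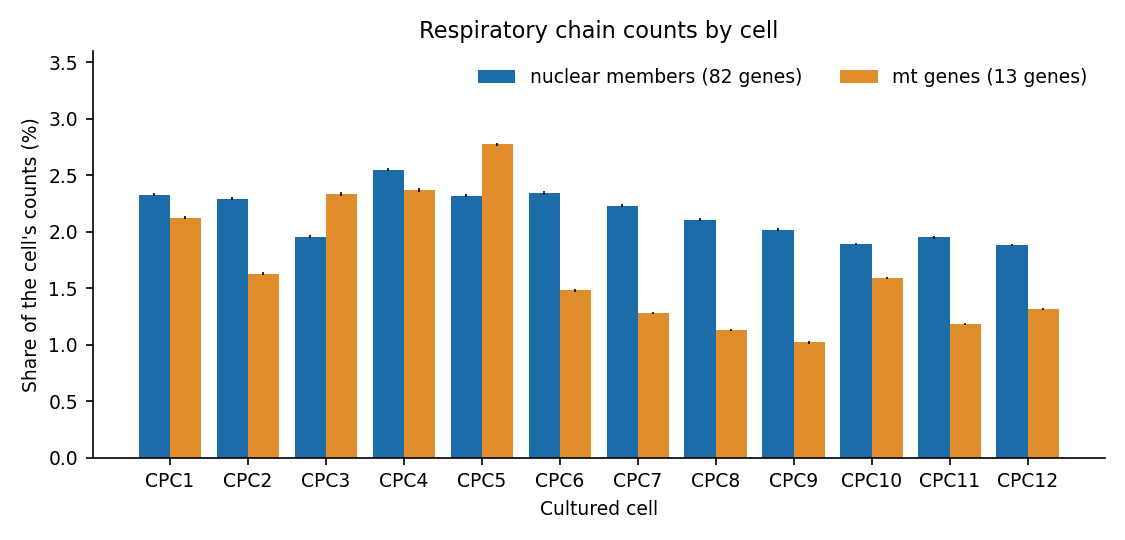
Bars give the share of each cell's counts (%) in the 82 nuclear members (blue) and the 13 mitochondrial genes (orange), and lines are exact 95% binomial intervals. The nuclear share stays between 1.88% and 2.55%, the mitochondrial share runs from 1.02% in CPC9 to 2.77% in CPC5, and the order of the bars is turned in CPC3 and CPC5.

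Nearly every nuclear member was present in every cell. At least 1 count in each of the 12 cells was found for 85 of the 95 members (75 nuclear and 10 mitochondrial), whereas 35.3% of all rows met this criterion. A mean of 100 CPM or more was reached by 72 members, against 10.1% of all rows. The 7 nuclear members missing from at least 1 cell were Cox6a2, Cox6b2, Cox7a1, Cox7b2, Cox8b, Cox8c and Ndufa4l2, which are the members listed as tissue-limited isoforms.

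Complex I held the most nuclear members. The sum of its 35 nuclear genes was 6315 CPM ± 726 (SD, 12 cells), which was 29.3% of the nuclear chain counts. Per kb of exon, Ndufa2 (median 603 CPM per kb), Ndufa1 (492) and Ndufa11 (291), accessory subunits of the complex, stood highest. On the principal transcript the order differed, with Ndufc1 at 658 and Ndufa7 at 608 above Ndufa2 (603), Ndufa11 (583) and Ndufa1 (492). At the other end were Ndufs1 (11.3), which carries iron-sulfur clusters of the electron path, and Ndufb2 (1.77), an accessory membrane subunit. Ndufb2 was low at 9.94 CPM (2.73 in CPC9 to 35.4 in CPC5) with none of its windows shared. Its rank rests partly on length, because the exon union of Ndufb2 spans 5628 bases and its principal transcript 455 bases, and per kb of the principal transcript its median was 21.8. The 7 nuclear core subunits, which hold the catalytic centres, summed to between 1003 CPM in CPC5 and 1508 CPM.

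Complex II, succinate dehydrogenase, joins the chain to the citric acid cycle. Its 4 genes summed to 1009 CPM ± 141 and made up 4.69% of the nuclear chain counts. The membrane anchor Sdhd had the highest median at 281 CPM per kb of exon, followed by the iron-sulfur subunit Sdhb at 108, the anchor Sdhc at 54.9 and the flavoprotein Sdha at 49.8. On the principal transcript Sdhb had 212, and the order of the last pair was turned, with 70.9 for Sdha and 56.3 for Sdhc. The ranges of CPM per cell were 254 to 526 for Sdhd, 180 to 378 for Sdhb, 132 to 221 for Sdhc and 98.4 to 380 for Sdha.

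In complex III the small subunits exceeded the core proteins. Uqcr11 had a median of 784 CPM per kb of exon, Uqcr10 of 481 and Uqcrb of 392, whereas the core proteins Uqcrc1 and Uqcrc2 had 100 and 53.6. On the principal transcript the order was kept at the ends, with 1129 for Uqcr11 and 72.2 for Uqcrc2, and Uqcrq (877) stood above Uqcr10 (648). The Rieske iron-sulfur protein gene Uqcrfs1 had 106 CPM per kb on both lengths. Cyc1, the cytochrome c1 subunit whose name falls outside the rule, had 109 CPM per kb of exon, and the mobile carrier Cycs had 64.3. Uqcrb was the complex III member with the largest spread for its level, from 145 CPM in CPC9 to 781 CPM in CPC4, and 29.1% of its windows were shared with other transcripts.

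In complex IV the broad isoforms were counted in every cell and the listed heart, muscle and testis isoforms were low or absent. Cox8a (chr19:7215153-7217616), a small membrane subunit, had the highest level of any nuclear member per kb of exon, with a median of 1042, but on the principal transcript Atp5b of complex V stood above it (1210 against 1173). Cox8a ran from 442 CPM in CPC9 to 1039 CPM in CPC5. Its muscle counterpart Cox8b had 1 count in 1 cell and the testis counterpart Cox8c had none, and a count of 0 allows up to 0.869 CPM in the shallowest cell (3 counts). Cox6a1 ranged from 239 to 616 CPM and its muscle counterpart Cox6a2 had no count. Cox7a2 ranged from 277 to 747 CPM, and its heart and muscle counterpart Cox7a1 had at most 4.52 CPM (17 counts, CPC6). Cox6b1 ranged from 339 to 666 CPM, and its testis counterpart Cox6b2 had 23.3 CPM (124 counts) in CPC10. Cox7b ranged from 180 to 629 CPM, and Cox7b2 had no count. Ndufa4 ranged from 356 to 788 CPM, and Ndufa4l2 reached 5.99 CPM in CPC4. Outside the rule the same held for the pair Cox4i1, with 454 to 1093 CPM, and Cox4i2, which had counts in 9 cells and at most 19.2 CPM (CPC12). In each of these pairs the highest value of the limited isoform lay below the lowest value of the broad one. Of the 10 cardiomyocyte markers in the same cells, 7 had no count, among them Myh6, Myh7 and Nppa, and Tnni3 and Ttn had at most 6 and 5 counts. Tnnt2, the troponin T gene of heart muscle, had counts in 10 of 12 cells, with a median of 3.34 CPM and the highest values of 59.1 and 86.6 CPM, the latter in CPC12.

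Complex V carried the largest part of the nuclear chain counts, at 35.1%. Atp5b (chr10:128083273-128090391), the catalytic beta subunit of the F1 head, alone supplied 10.8% of the nuclear chain counts and ran from 1370 CPM in CPC5 to 3148 CPM in CPC7, with a median of 547 CPM per kb of exon. The gamma subunit Atp5c1 had a median of 328 CPM per kb and the delta subunit Atp5d of 276, and on the principal transcript Atp5j (857) and Atp5h (739) stood above both (536 and 571). The lowest were Atp5g2 (39.8) and Atp5l (2.57), and per kb of the principal transcript, which spans 544 bases against 6443 for its exon union, Atp5l had 30.4. All of the windows of Atp5g2 and 63.4% of those of Atp5l were shared with other transcripts. The c-ring is encoded by Atp5g1, Atp5g2 and Atp5g3, whose mature proteins are the same, and 368, 66.6 and 363 CPM were counted for them at the median. Since 59.6% of the windows of Atp5g1 and 0% of those of Atp5g3 were shared, the balance of these genes is uncertain. Outside the rule, the ATP synthase genes Usmg5 and 2010107E04Rik had medians of 291 and 199 CPM and the synthase inhibitor Atpif1 of 116 CPM, each highest in CPC4.

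The remaining listed genes outside the rule were Ndufab1 (median 70.9 CPM), Higd1a (133 CPM, with 778 CPM in CPC12), Higd2a (131 CPM) and the testis cytochrome Cyct, which had no count. Among 51 listed assembly factors, which build the complexes without remaining in them, 42 had a count in every cell, against 35.3% of all rows. The complex IV factors Cox20, Sco2 and Pet117 had no count in any cell. Of 11 listed regulators of nuclear chain genes, Ppargc1a and Ppargc1b had counts in 2 cells and 1 cell, with at most 11 counts and 1 count, whereas Gabpa had 12.9 to 89.0 CPM and Nrf1 0.563 to 49.9 CPM. The mitochondrial transcription factor Tfam ran from 14.6 to 161 CPM.

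By the median over subunits, the nuclear part of complex III stood at 180 CPM per kb of exon, complex V at 156, complex IV at 114, complex I at 112 and complex II at 89.4. Complex III exceeded complexes I, II and IV in 12 of 12 cells and complex V in 9 of 12. Complex V exceeded complexes I and II in 12 of 12 cells and complex IV in 11 of 12. Complex I exceeded complex II in 12 of 12 cells on the exon union and in 10 of 12 on the principal transcript, and complex IV exceeded complex I in 8 of 12 on the exon union and in 10 of 12 on the principal transcript. The median ratio of IV to I was 1.07 on the exon union, 1.73 by the mean over subunits and 1.97 with subunits of at least 1 CPM. The place of complex IV depended on its near-empty isoforms, because with subunits of at least 1 CPM only it stood above complex V (median ratio of V to IV 0.679), as it did by the mean over subunits (0.754). With the longest transcript as the length, the order of complexes III and V was turned (ratio of III to V 0.892), as it was with subunits of at most 20% shared windows (0.926).

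**Figure D3:**
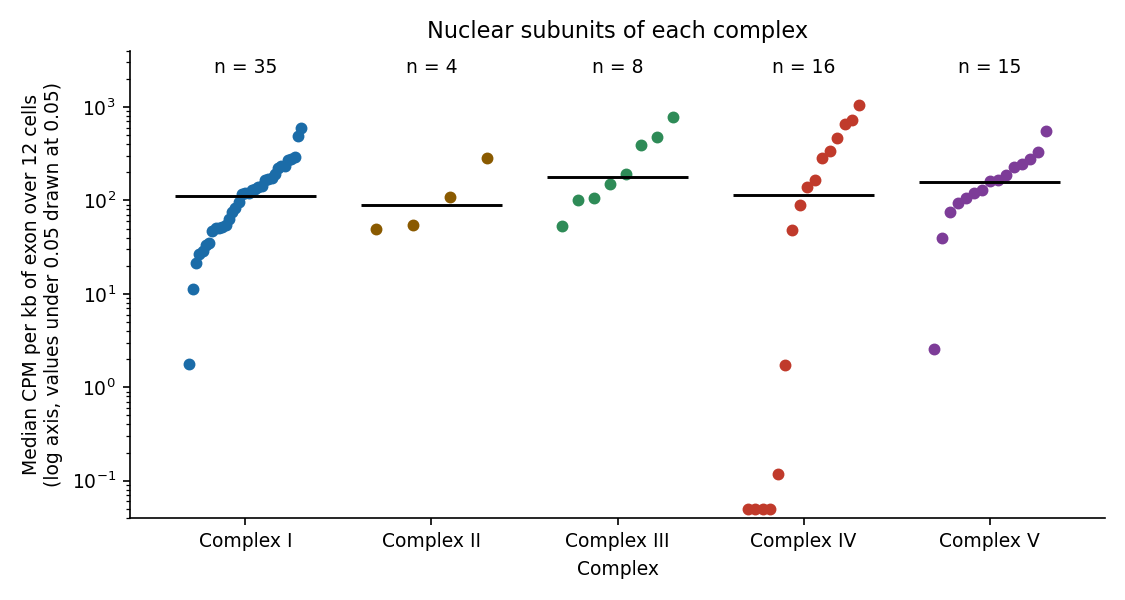
Each point is a nuclear subunit at its median CPM per kb of exon over 12 cells (log axis, values under 0.05 drawn at 0.05), and black lines are the median over subunits per complex. Cox8a is the highest at 1042, and 6 isoforms of complex IV lie under 2.

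For genes of their expression level the nuclear members varied little between cells. Variation was measured as a residual, the squared coefficient of variation over cells on a log10 scale after subtraction of its running median over genes of similar level. Genes averaging under 5 CPM were left out. Its median was -0.26 over 75 nuclear members, of which 68 lay below 0, and 49.8% of all genes tested lay below 0. The 7 above 0 were Uqcrb (0.22), Atp5g3 (0.22), Atp5s (0.13), Atp5l (0.04), Ndufb2 (0.03), Ndufv1 (0.03) and Atp5j (0.01). The steadiest was Atp5g2, whose level ran from 54.8 to 87.5 CPM. Over the 9 mitochondrial genes with a residual the median was -0.01, with 5 below 0, and mt-Nd2 varied most for its level (residual 0.36, from 376 CPM in CPC9 to 1808 CPM in CPC5). The median of the mitochondrial genes turned positive under other scalings and without CPC3 and CPC10 (0.09).

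The mitochondrial genes moved together over the cells, and the nuclear members much less so. Pearson r of log2(CPM + 1) was taken for each pair of genes that averaged 10 CPM or above. Its median was 0.73 over 28 mitochondrial pairs, 0.17 over 2775 nuclear pairs, 0.26 over 600 nuclear-mitochondrial pairs and 0.02 over the pairs of all 8492 genes. The medians were 0.17 for nuclear pairs within a complex and 0.18 for pairs between complexes. By complex the medians were 0.17 for complex I, 0.15 for II, 0.21 for III, 0.37 for IV and 0.12 for V. The closest mitochondrial pair was mt-Nd4 and mt-Nd6 (0.98), and the loosest was mt-Nd1 and mt-Nd5 (0.34). The members most like the nuclear sum were Uqcr11 (r 0.84), Cox5a (0.80) and Ndufa2 (0.80), and those most like the mitochondrial sum were mt-Co3 (0.90), mt-Nd4 (0.89) and the complex IV gene Cox6c (0.86). As sums, nuclear complex IV had an r of 0.81 with the mitochondrial sum, complex I of 0.58, complex III of 0.37, complex II of -0.05 and complex V of -0.16. For complex IV the value was 0.66 without CPC4 and CPC5 and 0.91 without CPC3 and CPC10, and for complex III 0.21 and 0.57. The sign for complex V depended on the cells, with -0.55 without CPC4 and CPC5 and 0.18 without CPC3 and CPC10, and that for complex II was -0.18 and 0.01. For complex I the values were 0.42 and 0.66. All of these values describe 12 cells that share a group, and CPM shares a denominator.

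Nuclear members split by the length of their transcript in how they moved with the mitochondrial genes. This split was chosen after the values had been seen. The 74 nuclear members with a mean of at least 10 CPM and an annotated transcript were cut into 25 short (315 to 590 bases), 24 middle (596 to 1001) and 25 long (1046 to 3171) by their principal transcript, the main one named by the annotation. The median r with the mitochondrial sum was 0.53 for the short members (24 of 25 above 0), 0.37 for the middle (19 of 24) and -0.05 for the long (11 of 25). Across all protein-coding genes cut at the same lengths the medians were 0.35 (142 genes), 0.16 (550) and -0.01 (7638), which follow the same order. The long class of all genes had no upper limit and reached 123179 bases. Values above 0 were held by 96%, 79.2% and 44% of the members. Among all genes the shares were 85.9%, 72.2% and 48.4%, so the order was not particular to the members. Length itself had an r of -0.60 with these values across the 74 members, but of 0.01 (rho 0.05) across 8330 genes, so no such relation was seen over the full range of lengths. The classes of members took the same order with the number of genes detected (median r 0.47, 0.39 and 0.24) and the reverse order with the total (-0.47, -0.28 and -0.11), and the part of detection and depth was not tested. Short members had a median pair r of 0.45 among themselves, and long members of 0.05.

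Named members showed both sides. Cox6c (chr15:35925886-35938246), with a transcript of 503 bases, ran from 477 CPM in CPC9 to 1026 CPM in CPC4. Ndufa3, an accessory subunit of complex I with a transcript of 515 bases, ran from 61.2 CPM in CPC9 to 208 CPM in CPC4, and its r with the mitochondrial sum was 0.84. In contrast, Atp5b (1916 bases) had an r of -0.82, with its lowest levels of 1370 and 1425 CPM in CPC5 and CPC3, where the nuclear to mitochondrial ratio was lowest. The complex III core protein Uqcrc1 (1653 bases) had -0.75, from 244 CPM in CPC5 to 607 CPM in CPC6. Other long members had positive values, among them Ndufa13 (1251 bases, 0.62) and Ndufs4 (1698 bases, 0.56). Of the 25 long members, 11 lay above 0. As sums, the 5 F1 head genes, of which Atp5b held the most counts, had an r of -0.73 with the mitochondrial sum. Singly, Atp5a1 (-0.74) and Atp5d (-0.47) had the sign of Atp5b, whereas Atp5e (0.73) and Atp5c1 (0.34) had the opposite sign. Other parts of complex V had positive values as sums, with 0.67 for the 3 c-ring genes and 0.70 for the 4 peripheral stalk genes. Gene by gene these parts were mixed. In the c-ring Atp5g3 had 0.75, Atp5g1 0.32 and Atp5g2 -0.04. In the stalk Atp5j had 0.80, Atp5h 0.19, Atp5f1 0.16 and Atp5o -0.08. The sum of the 7 core subunits of complex I had -0.61, which was -0.36 with median-of-ratios size factors. The 17 listed citric acid cycle genes, which feed the chain, had -0.82, from 2518 CPM in CPC5 to 4065 CPM in CPC9, and -0.73 without CPC8 and CPC9.

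The ratio of short to long nuclear members, which needs no total, ran from 0.545 in CPC9 to 1.35 in CPC5. These were also the cells with the lowest and the highest mitochondrial share. On the log2 scale r was 0.93 (Spearman rho 0.90, n = 12), 0.88 without CPC5 and CPC9, and 0.94 without CPC3 and CPC10. The same ratio over all protein-coding genes had an r of 0.82 with the mitochondrial share. Summed separately, short members had an r of 0.80 with the mitochondrial sum and long members of -0.67. Without the 2 cells farthest from the median r was 0.67 for short members (CPC5 and CPC9 left out) and -0.35 for long members (CPC3 and CPC5 left out). With TMM scaling of all 12 cells the sums gave 0.86 and -0.56, and with median-of-ratios size factors 0.87 and -0.50. Restricted to members with no shared window they were 0.78 (13 genes) and -0.70 (21 genes). With the cut made on the exon union the ratio had an r of 0.84. Complex and length went together, since complex IV held 0 long members among 10 and complex II held 4 among 4, so complex and transcript length cannot be told apart in full.

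**Figure D4:**
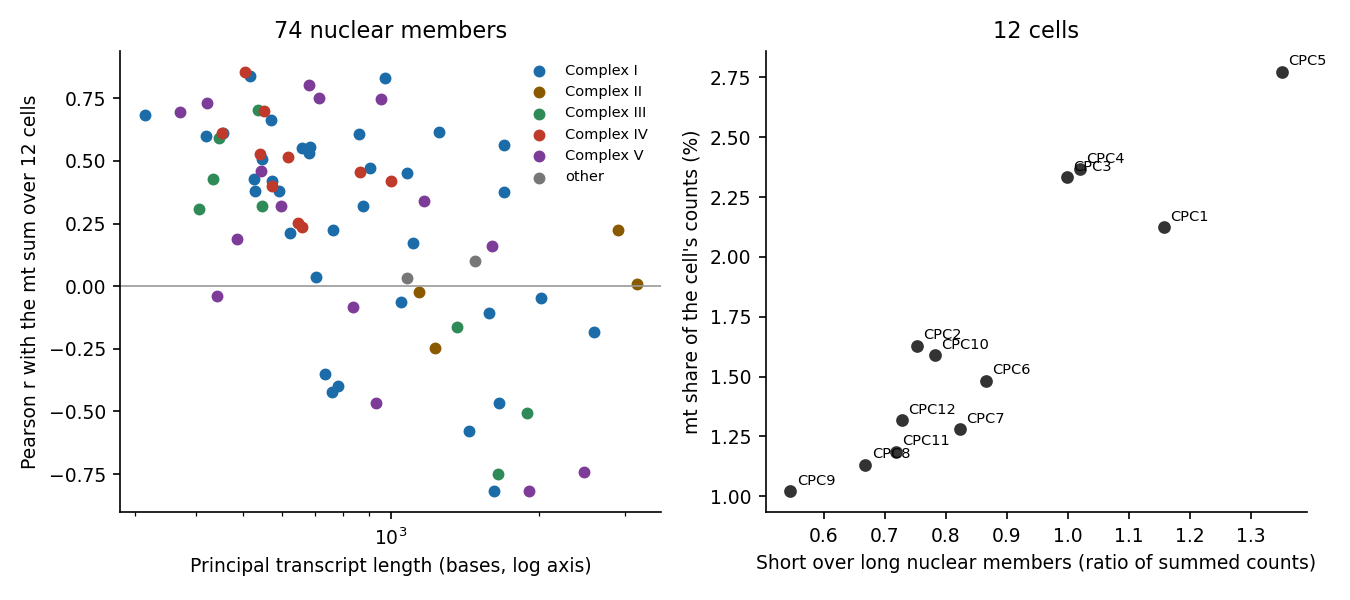
The left panel plots each of 74 nuclear members by principal transcript length (bases, log axis) and Pearson r with the mitochondrial sum over 12 cells, coloured by complex, and r falls from mostly above 0 for short transcripts to both signs for long ones. The right panel plots the 12 cells by the ratio of summed counts of short to long members and the mitochondrial share of counts (%), which rise together from CPC9 to CPC5.

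**Figure D5:**
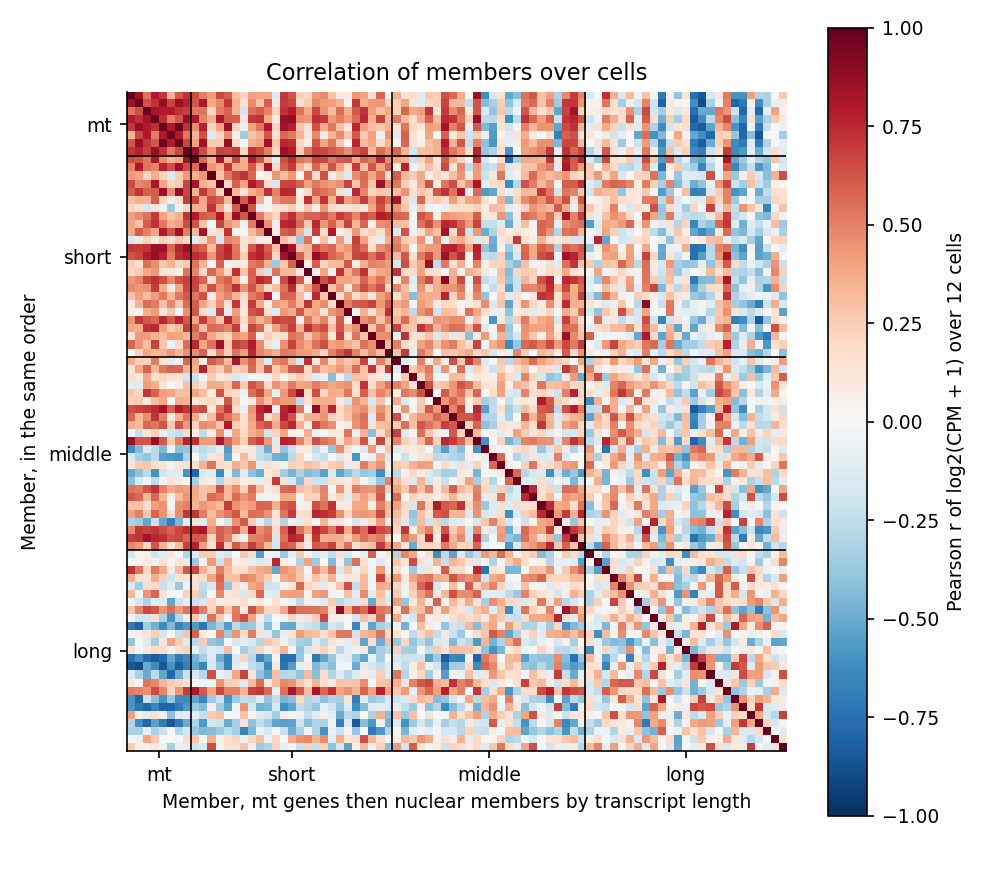
Colours give Pearson r of log2(CPM + 1) over 12 cells for each pair of 8 mitochondrial genes and 74 nuclear members, the latter ordered by transcript length and divided by lines into short, middle and long. The mitochondrial and short blocks are mostly red (medians 0.73 and 0.45), and the mitochondrial-by-long block holds both colours (median -0.07).

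Promoters of the nuclear members were searched for the letters of NRF1, ETS factors and YY1, known regulators of chain genes, and for CCAAT and TATAAA. RefSeq windows of GRCm38.p6, from 250 bases before to 50 after the start, matched 66 of the 82 nuclear members by symbol. Both strands were searched, a gene counted when any of its starts held the letters, and overlapping matches were allowed. N stands for any base. The NRF1 letters GCGCANGCG stood in 30.3% of the 66 members and in 7.03% of all 27025 genes of the table. The ETS letters CCGGAAG stood in 24.2% and 9.93%, the YY1 letters AAGATGGCG in 10.6% and 1.64%, CCAAT in 43.9% and 41.1%, and TATAAA in 10.6% and 15.7%. Among the 1705 genes with a mean of 100 CPM or more the shares were 18.3% for NRF1, 24.4% for ETS, 3.87% for YY1, 43.0% for CCAAT and 10.1% for TATAAA, so the ETS, CCAAT and TATAAA shares of the members were near those of all genes at this level. NRF1 letters stood in 7 of 13 complex V genes and in 1 of 13 complex IV genes.

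The 3 windows printed here belong to the closest nuclear pair, Ndufa13 and Ndufa11 of complex I (r 0.90, and 0.90 without CPC3 and CPC10), and to Atp5l, the member with the most kinds of motif (4). Matches on either strand to any of the 5 motifs are in capitals, and a match describes letters only. Ndufa13 lies at chr8:69901971-69902270 (minus strand), Ndufa11 at chr17:56717512-56717811 (plus strand) and Atp5l at chr9:44920693-44920992 (minus strand).
Ndufa13: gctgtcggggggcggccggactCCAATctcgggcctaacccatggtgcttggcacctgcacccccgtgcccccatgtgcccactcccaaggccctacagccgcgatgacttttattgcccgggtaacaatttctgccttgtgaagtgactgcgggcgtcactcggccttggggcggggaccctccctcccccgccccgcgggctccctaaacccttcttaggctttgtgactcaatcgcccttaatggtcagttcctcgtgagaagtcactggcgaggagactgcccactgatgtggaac
Ndufa11: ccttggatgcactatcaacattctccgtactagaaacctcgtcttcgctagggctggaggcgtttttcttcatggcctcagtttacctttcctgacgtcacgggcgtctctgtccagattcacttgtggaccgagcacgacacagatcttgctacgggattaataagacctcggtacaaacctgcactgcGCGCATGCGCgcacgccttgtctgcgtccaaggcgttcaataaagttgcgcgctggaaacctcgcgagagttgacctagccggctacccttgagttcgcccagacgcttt
Atp5l: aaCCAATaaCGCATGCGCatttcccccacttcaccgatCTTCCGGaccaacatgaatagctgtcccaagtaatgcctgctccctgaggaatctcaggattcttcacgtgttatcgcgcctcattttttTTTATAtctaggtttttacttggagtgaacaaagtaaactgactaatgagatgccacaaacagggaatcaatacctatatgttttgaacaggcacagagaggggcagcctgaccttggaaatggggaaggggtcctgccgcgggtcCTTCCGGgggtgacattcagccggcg
Ndufa13 held CCAAT without NRF1 letters, and Ndufa11 held NRF1 letters without CCAAT. Their levels ran together from 202 CPM for Ndufa13 and 240 CPM for Ndufa11 in CPC9 to at most 489 CPM in CPC3 and 462 CPM in CPC1.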

How the data were processed

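The authors mapped paired 75-base reads from the 12 libraries (Smart-Seq v4, Nextera XT) to mm10 with STAR 2.5.2b and retained unique alignments. Each deposited value is the count of reads for a gene in a cell, without scaling. The counting program, its annotation and its strand rule are not given in the sources used here. Totals ran from 3453708 to 5690184 counts.

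Counts were divided by the cell's total for CPM. Lengths, positions and 75-base windows came from GENCODE vM21, on the same build, and 94 of 95 members matched. A window was shared when it occurred exactly in a transcript of another gene that does not overlap. Unannotated copies were not searched. The main length was the exon union. Sequence was aligned with Biopython 1.88. Scales, filters, pseudocounts and lengths were varied, TMM came from edgeR 4.0.16, and leave-one-out values were computed for each cell. Code was tested on simulated data. Intervals and the limit of 3 counts cover counting error only.

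Named genes were the mitochondrial rows with counts, the 3 highest and 2 lowest nuclear members per complex per kb, listed isoforms and chain genes, the largest residual per complex, and those most like the sums. Members outside this rule were named after their values were seen. The members and lists were chosen with earlier results of these data known. Python 3.11.15 was used.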

Additional observations from a re-analysis of the deposited data

How the results depend on the processing

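Of 71 alternatives over 13 results, 44 moved a value by less than its spread (SD over cells, or over the 12 leave-one-out values for correlations and residuals). This leaves out 4 alternatives that removed no gene and so could not move a value, and the 4 alternatives of the count of members in every cell, which has no spread. The mitochondrial share was 0.708% over genes with no shared window, and the nuclear share 2.39% with the listed genes outside the rule. The nuclear-mitochondrial r was 0.69 with TMM, 0.73 with median-of-ratios, 0.74 without CPC3 and CPC10, and 0.58 over mitochondrial genes with no shared window; leaving out each cell gave 0.35 (without CPC4) to 0.65 (without CPC3). The median r of nuclear pairs was 0.15 by Spearman and 0.19 without CPC3 and CPC10 (0.13 to 0.19 leaving out each cell). That of mitochondrial pairs was 0.82 without CPC3 and CPC10 (0.67 to 0.78). That of nuclear-mitochondrial pairs was 0.32 with TMM, 0.35 with median-of-ratios, 0.22 by Spearman and 0.35 without CPC3 and CPC10 (0.21 to 0.30). The nuclear residual stayed between -0.30 and -0.23 leaving out each cell. The mitochondrial residual turned to 0.041 with TMM, 0.066 with median-of-ratios, 0.102 at 50 CPM or more and 0.088 without CPC3 and CPC10 (-0.124 without CPC5 to 0.047 without CPC10 leaving out each cell). The ratio of complex III to V was 0.892 on the longest transcript, 1.74 by the mean over subunits and 0.926 with subunits of at most 20% shared windows. The ratio of V to IV was 0.754 by the mean, 0.679 with subunits of 1 CPM or more and 1.73 on the principal transcript. The ratio of IV to I was 1.73 by the mean and 1.97 with subunits of 1 CPM or more. The ratio of I to II was 1.04 on the longest transcript and 1.58 with at most 20% shared windows. The count of members in every cell stayed at 84 to 85. The cause of these shifts was not tested. Alternatives with shared windows, principal transcripts and length classes were chosen after seeing the data. No paired analysis was possible because there is 1 group.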
